A study of Arabidopsis thaliana with 9 samples.

Results

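The 57 genes of the nuclear auxin response in Arabidopsis thaliana described here are 29 Aux/IAA genes, 15 ARF genes, 8 GH3 genes and the 5 receptor genes TIR1, AFB1, AFB2, AFB3 and AFB5. They were picked by gene identifier from the 33602 gene models counted in each library. Auxin acts as a molecular glue between an F-box receptor of the TIR1/AFB family and an Aux/IAA protein, which is then marked with ubiquitin and destroyed. Aux/IAA proteins hold ARF transcription factors inactive, so their loss frees activating ARFs to switch on early auxin genes, among them many Aux/IAA genes and GH3 genes. GH3 enzymes join auxin to amino acids, and these reactions together form a negative feedback on the signal.

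RNA was sequenced from whole seedlings grown in vitro, in 9 libraries of 3 genotypes with 3 biological replicates each: wild type (WT), a line labelled RNAi (a knock-down of AT1G67105 by RNA interference) and a line labelled 35S_ASCO (an overexpression of AT1G67105, with the words promoter trap in its label). AT1G67105 is the long noncoding RNA gene ASCO, at chr1:25057479-25058264 on the plus strand of TAIR10.1. The labels give an age of 16 days for the WT and 35S-ASCO libraries and for RNAi-ASCO replicate 3, but 4 days for RNAi-ASCO replicates 1 and 2, and do not say whether a line is 1 transformant. Library totals ranged from 27044702 to 126355312 counted read pairs, so that a floor of 3 pairs stood at 0.0237 to 0.110 CPM (pair counts scaled to a common library total). AT1G67105 was counted at 4.22 ± 2.09 CPM in WT, at 19.7 ± 3.01 CPM in the line labelled RNAi and at 3616 ± 67.1 CPM under 35S-ASCO (mean ± SD, n = 3). The counts were higher than in WT, where the label names a knock-down, and the group is therefore called the RNAi-labelled libraries. Counts per gene model cannot tell pairs of the gene from pairs of an RNAi construct. Whether the gene was knocked down was not tested. All 4 shoot and 7 root marker genes examined were detected in every library, and none stood at 0. Their sums ranged from 22120 to 26370 CPM for the shoot list and from 2682 to 3329 CPM for the root list.

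Early auxin genes are switched on through the auxin response element bound by ARF proteins, the letters TGTCTC or the higher-affinity form TGTCGG. These letters were searched on both strands in the 250 bases before each gene start in the RefSeq annotation of TAIR10.1, in which all 57 genes were found. Either form was present in 20 of the 57 windows (35.1%), compared with 14.7% of the windows of all 27443 protein-coding genes. By family, 13 of 29 Aux/IAA windows (44.8%), 3 of 8 GH3 windows (37.5%), 3 of 15 ARF windows (20%) and 1 of 5 TIR1/AFB windows (20%) held one. The shared core TGTC was found in 49 of the 57 windows and in 74.8% of all windows, so that its presence alone separates few genes. The windows of 4 genes that passed the test below are shown because they differ in this respect. Those of GH3.3 (chr2:9866563-9866812, minus strand) and IAA1 (chr4:8360746-8360995, plus strand) hold the letters, in capitals and in either orientation, while those of GH3.6 (chr5:22133689-22133938, minus strand) and IAA28 (chr5:9032954-9033203, plus strand) do not.
GH3.3: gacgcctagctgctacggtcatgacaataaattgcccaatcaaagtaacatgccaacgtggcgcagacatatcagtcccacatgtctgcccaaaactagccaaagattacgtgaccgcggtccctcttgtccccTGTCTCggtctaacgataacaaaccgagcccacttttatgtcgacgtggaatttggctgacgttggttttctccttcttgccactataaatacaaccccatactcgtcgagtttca
GH3.6: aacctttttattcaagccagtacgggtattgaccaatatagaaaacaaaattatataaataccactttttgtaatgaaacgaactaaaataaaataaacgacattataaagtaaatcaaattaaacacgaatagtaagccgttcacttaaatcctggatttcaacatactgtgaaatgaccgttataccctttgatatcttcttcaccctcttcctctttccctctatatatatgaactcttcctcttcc
IAA1: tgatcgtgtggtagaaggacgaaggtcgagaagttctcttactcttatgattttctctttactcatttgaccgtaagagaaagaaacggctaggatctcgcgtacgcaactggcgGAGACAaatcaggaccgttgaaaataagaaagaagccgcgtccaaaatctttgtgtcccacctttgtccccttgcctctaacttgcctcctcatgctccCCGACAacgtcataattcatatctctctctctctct
IAA28: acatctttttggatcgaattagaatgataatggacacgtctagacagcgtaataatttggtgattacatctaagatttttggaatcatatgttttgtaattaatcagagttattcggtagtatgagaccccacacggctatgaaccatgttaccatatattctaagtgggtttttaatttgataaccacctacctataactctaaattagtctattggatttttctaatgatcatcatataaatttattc
In the GH3.3 window the motif starts 116 bases before the gene start. In the IAA1 window TGTCTC lies in reverse orientation (GAGACA) at 135 bases and TGTCGG in reverse orientation (CCGACA) at 36 bases. A match is a description of letters and not a measured binding site.

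In WT seedlings the families differed in how evenly their members were expressed. Levels between genes are compared as mean CPM per kilobase of gene model. Aux/IAA genes ran from IAA9 at 189, IAA16 at 185, IAA8 at 147 and IAA7 at 128 down to IAA34 at 0.200 and IAA15 at 0.0227, with 7 genes below 1. IAA15 had 0 to 4 pairs per library and was the only member removed by the filter on low counts, which left 56 tested. ARF genes lay closer together: ARF2, a repressor-class factor, stood at 109 per kilobase, ARF1 at 41.2 and ARF6 at 24.6, while the least expressed, ARF17, stood at 5.54. The GH3 family was led by GH3.6 at 65.5, followed by GH3.5 at 23.5, GH3.17 at 19.1, GH3.3 at 9.57 and GH3.2 at 7.52. GH3.9, GH3.1 and GH3.4 were low, at 1.40, 0.653 and 0.108. The 5 receptor genes were the most even set, in the order TIR1 (52.8), AFB5 (48.9), AFB2 (39.6), AFB3 (28.2) and AFB1 (25.4). Neighbours in these orders often overlapped over the 3 WT libraries: 18 of 28 neighbouring pairs of Aux/IAA genes, 8 of 14 of ARF genes, 2 of 7 of GH3 genes and 1 of 4 of receptor genes.

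**Figure D1:**
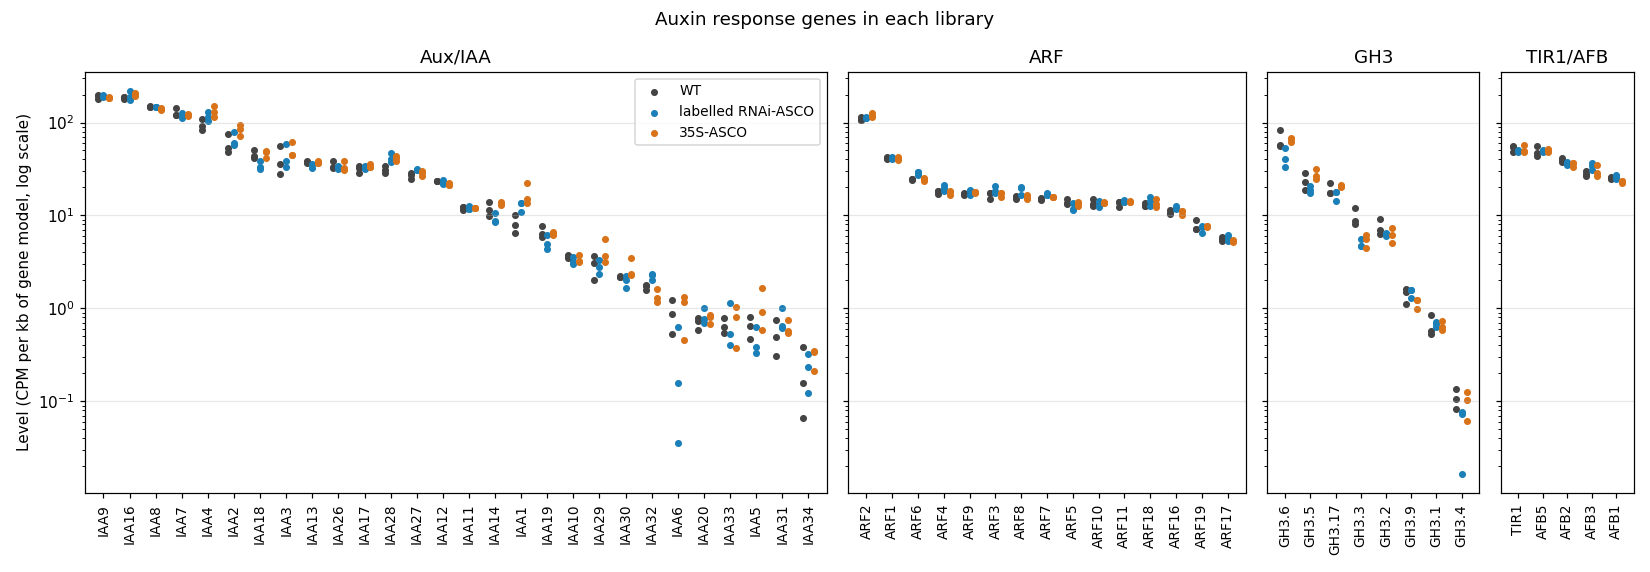
Level of the 56 tested genes in each of the 9 libraries, in CPM per kilobase of gene model on a log axis, ordered within each family by the WT mean; each point is 1 library, coloured by group. Aux/IAA and GH3 genes span the widest ranges of level. ARF genes run from 109 (ARF2) to 5.54 per kilobase in WT (ARF17), and the 5 receptor genes lie closest together.

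The spread between WT libraries also differed by family. The highest WT value was a median of 1.49 times the lowest among GH3 genes and 1.21 times among Aux/IAA genes, compared with 1.08 times among ARF genes and 1.12 times among receptor genes. WT replicate 3 was the highest WT library for 6 of 8 GH3 genes, 15 of 29 Aux/IAA genes and 31 of all 57 genes. GH3 differences from WT are therefore given below also without that library where its removal ended a call or moved it.

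The first comparison set the RNAi-labelled libraries against WT. In edgeR's quasi-likelihood test, an adjusted p under 0.05 was reached by 5 of the 56 auxin response genes (8.93%) and by 11.8% of all 22719 genes in the fit. GH3.3, GH3.6 and IAA18 fell, and IAA28 and ARF6 rose, where over all genes 4.82% fell and 6.96% rose. The median log2 fold change was 0.01 over the 56 genes and -0.01 over all genes. Values of the groups did not overlap for 11 genes that were higher and 6 that were lower than WT, compared with 32.4% of all genes tested. In whole seedlings, fewer cells of a type and less RNA per cell cannot be told apart. Without the 2 libraries labelled 4 days, 0 of the 56 genes passed, as did 0.441% of all genes, with 1 library left in the group. For these contrasts a labelled age of 4 days and the genotype cannot be told apart in those 2 libraries.

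Of the 3 genes that fell, 2 were GH3 genes, out of 8 GH3 genes tested (25%, compared with 4.82% of all genes). GH3.3 (AT2G23170), an enzyme that joins indole-3-acetic acid to amino acids and a rapid target of auxin, stood at 18.5, 17.0 and 25.4 CPM in WT replicates 1 to 3 and at 10.02, 11.83 and 10.02 CPM in the RNAi-labelled libraries. In 35S-ASCO it stood at 11.8, 9.50 and 12.9 CPM. Every library of both lines lay below every WT library, and the library labelled RNAi-ASCO and 16 days stood level with RNAi-ASCO replicate 1. Against WT, GH3.3 fell by 0.93 ± 0.16 on the log2 scale (SE) in the RNAi-labelled libraries (to 0.524 of WT, adjusted p = 0.00682). The call held without each library in turn, with values from -1.05 to -0.73, but not without both libraries labelled 4 days, where the log2 fold change was -1.02 and the adjusted p 0.168.

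GH3.6 (AT5G54510, DFL1), an enzyme of the same kind and the most expressed GH3 gene here, stood at 126, 123 and 179.7 CPM in WT and at 71.6, 87.7 and 115.9 CPM in the RNAi-labelled libraries. In 35S-ASCO it stood at 148, 134 and 146 CPM, within the WT range. It fell by 0.64 ± 0.18 in the RNAi-labelled libraries (adjusted p = 0.0463), and the highest of these was the one labelled 16 days, close to the lowest WT library. The log2 fold change was -0.44 without WT replicate 3 (adjusted p = 0.117) and -0.30 without the libraries labelled 4 days (adjusted p = 0.608). The call also ended in a fit of only the 6 libraries compared (adjusted p = 0.0754) and without WT replicate 1, RNAi-ASCO replicate 1 or 2, or 35S-ASCO replicate 2 or 3, at adjusted p-values from 0.0628 to 0.148.

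The other 6 GH3 genes did not pass. GH3.5 (WES1), which acts on indole-3-acetic acid and salicylic acid, had a log2 fold change of -0.30 (adjusted p = 0.215), and GH3.17, which favours glutamate as the amino acid, had -0.19 (adjusted p = 0.303). GH3.1 had the highest value of the family, 0.09 (adjusted p = 0.817). The median over the 8 genes was -0.28. The summed GH3 level was 236.9 to 342.1 CPM in WT, 170.0 to 228.6 CPM in the RNAi-labelled libraries and 260.2 to 290.8 CPM in 35S-ASCO, so that the sum did not overlap between the first pair of groups. GH3.6, the most expressed member, weighs most in this sum, and 32.4% of all genes tested did not overlap in that comparison. The summed root markers overlapped, at 2776 to 3329 CPM in WT and 2682 to 2783 CPM in the RNAi-labelled libraries. Most of that sum was BGLU23 (3053 CPM in WT), which did not pass (log2 fold change -0.18). Of the 7 root markers 1 fell in edgeR's test, the root hair expansin EXPA7 (log2 fold change -0.47, adjusted p = 0.038). COBL9, CASP1, MYB36, PRP3 and NRT2.1 had -0.02, -0.004, 0.02, -0.17 and -0.87 and did not pass. None of the 4 shoot markers passed. The part of root content in the GH3 values was not tested.

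**Figure D2:**
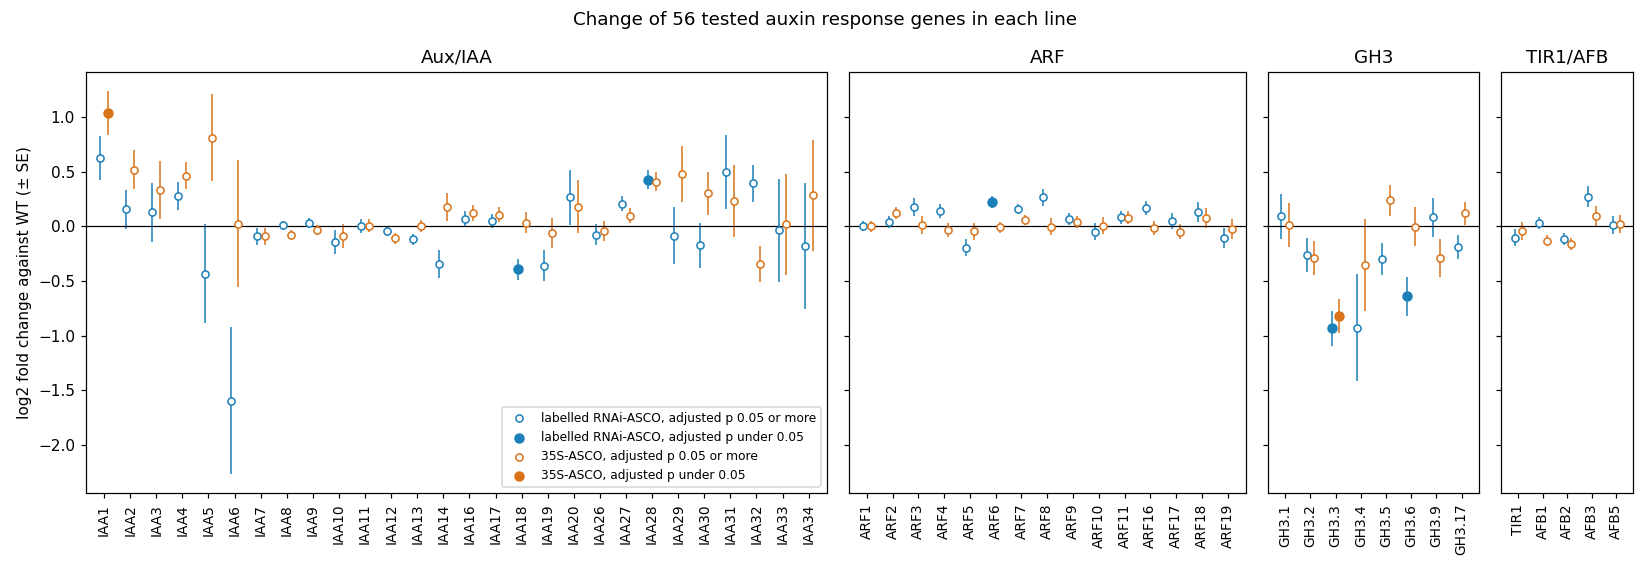
Log2 fold change against WT (vertical axis, bars are SE) of the 56 tested genes in the RNAi-labelled libraries and in 35S-ASCO, each fitted on 3 libraries per group; filled points passed an adjusted p of 0.05. GH3.3 is the one gene filled for both lines, at -0.93 and -0.82, and most ARF and receptor genes lie near 0.

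Of the 28 Aux/IAA genes tested, 1 rose, 1 fell and 26 did not pass (7.14% passed, compared with 11.8% of all genes). IAA28 (AT5G25890), a repressor of lateral root initiation whose transcript is known not to be induced by auxin, stood at 24.97, 29.4 and 26.7 CPM in WT, at 32.8, 41.1 and 35.6 CPM in the RNAi-labelled libraries and at 36.3, 38.0 and 34.01 CPM in 35S-ASCO. All 6 libraries of the lines lay above all 3 WT libraries. IAA28 rose by 0.43 ± 0.09 on the log2 scale in the RNAi-labelled libraries (adjusted p = 0.0156). The call ended without WT replicate 1 (0.38, adjusted p = 0.0597) or RNAi-ASCO replicate 2 (0.33, adjusted p = 0.0614), and without both libraries labelled 4 days (0.39, adjusted p = 0.189).

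IAA18 (AT1G51950), a canonical Aux/IAA protein known from gain-of-function mutants with defects in embryo patterning and lateral rooting, stood at 64.5, 67.6 and 77.7 CPM in WT and at 48.9, 51.5 and 59.4 CPM in the RNAi-labelled libraries. In 35S-ASCO it stood at 64.4, 76.3 and 74.7 CPM, overlapping WT. It fell by 0.39 ± 0.10 in the RNAi-labelled libraries (adjusted p = 0.0297). The call ended without WT replicate 3 (-0.31, adjusted p = 0.0754), RNAi-ASCO replicate 1 (-0.34, adjusted p = 0.107) or RNAi-ASCO replicate 2 (-0.37, adjusted p = 0.111), and without both libraries labelled 4 days (-0.24, adjusted p = 0.524).

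The remaining Aux/IAA genes spread around 0, with a family median of -0.02. The lowest value was that of IAA6 (SHY1), at -1.60 ± 0.67 (adjusted p = 0.155). Its 0.441, 1.02 and 0.730 CPM in WT overlapped the 0.0297, 0.131 and 0.517 CPM of the RNAi-labelled libraries, of which the 2 lowest were those labelled 4 days. These were 1, 6 and 30 pairs, and RNAi-ASCO replicate 1 lay below its floor of 3 pairs (0.0892 CPM), so the size of the IAA6 change is uncertain. The log2 fold change of IAA6 was -3.11 without RNAi-ASCO replicate 3, where IAA6 passed (adjusted p = 0.0365), and -0.56 without the libraries labelled 4 days. The most expressed member, IAA9, stood at 306 ± 13.3 CPM in WT and 313 ± 4.96 CPM in the RNAi-labelled libraries (log2 fold change 0.03, adjusted p = 0.75).

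ARF genes mostly had small positive values in the RNAi-labelled libraries, and 1 of 15 passed (6.67%, compared with 11.8% of all genes). ARF6 (AT1G30330), an activating ARF that acts with ARF8 in flower maturation and adventitious rooting, stood at 95.1, 94.0 and 93.0 CPM in WT, at 113, 113 and 103 CPM in the RNAi-labelled libraries and at 94.4, 96.1 and 90.3 CPM in 35S-ASCO. Only the middle group stood apart, and its lowest library was the one labelled 16 days. ARF6 rose by 0.22 ± 0.05 on the log2 scale (1.17 times WT, adjusted p = 0.0233). The call ended without WT replicate 1 or 3 or RNAi-ASCO replicate 1 or 2, at adjusted p-values from 0.0537 to 0.102. Without both libraries labelled 4 days the log2 fold change was 0.13 (adjusted p = 0.508).

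Its partner ARF8 (AT5G37020) stood at 46.4, 44.8 and 42.9 CPM in WT and at 58.0, 56.2 and 46.9 CPM in the RNAi-labelled libraries. These ranges did not overlap, and ARF8 had the highest log2 fold change of the family, 0.27, at an adjusted p of 0.0584. DESeq2 called it (adjusted p = 0.0294), and without the libraries labelled 4 days the value was 0.07 (adjusted p = 0.785). ARF7 (NPH4), an activating ARF of lateral root formation, had 0.16, also without overlap, at an adjusted p of 0.05002, just above the threshold. ARF5 (MONOPTEROS), the activating ARF of embryonic root formation, had the lowest value, -0.19 (adjusted p = 0.146). In all, 12 of the 15 values were above 0, as were 11059 of the 22719 over all genes. Of the 15 ARF genes, 6 did not overlap WT and were higher, and 0 did not overlap and were lower, compared with 16.9% and 15.5% of all genes. The median was 0.16 over the 5 activating ARFs and 0.08 over the 10 of the repressor class, against -0.01 over all genes tested.

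No receptor gene passed in either line. In the RNAi-labelled libraries, the highest value was that of AFB3, at 0.27 (adjusted p = 0.0992), and the lowest that of AFB2, at -0.12 (adjusted p = 0.202). TIR1, the founding receptor, stood at 124 ± 9.52 CPM in WT, 115 ± 3.26 CPM in the RNAi-labelled libraries and 120.0 ± 12.3 CPM in 35S-ASCO. By unadjusted p under 0.05, edgeR counted 1 of the 5 in the RNAi-labelled libraries and 2 of the 5 in 35S-ASCO. Over all genes these shares were 27.5% and 17.4%. The summed receptor level was 429.2 to 467.7 CPM in WT, 448.0 to 461.9 CPM in the RNAi-labelled libraries and 419.2 to 475.1 CPM in 35S-ASCO, all overlapping.

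The second comparison set 35S-ASCO against the same 3 WT libraries, so the values of both lines share their control. IAA1 rose and GH3.3 fell, 2 of the 56 genes tested (3.57%), compared with 1.67% of all genes, of which 1.36% rose and 0.313% fell. Values did not overlap WT for 7 genes that were higher and 5 that were lower, compared with 21.9% of all genes tested. IAA1 (AT4G14560, AXR5), an early auxin-induced Aux/IAA gene, stood at 5.47, 6.67 and 8.43 CPM in WT and at 18.5, 12.7 and 11.4 CPM in 35S-ASCO. The RNAi-labelled libraries had 9.10, 11.4 and 11.5 CPM, so that no library of either line overlapped WT, and 35S-ASCO replicate 1 was the highest of all. IAA1 rose by 1.04 ± 0.20 on the log2 scale in 35S-ASCO (2.05 times WT, adjusted p = 0.0383) and had 0.63 ± 0.20 in the RNAi-labelled libraries (adjusted p = 0.0754). In the RNAi-labelled libraries DESeq2 called IAA1 (adjusted p = 0.0163). It also passed there in edgeR with only the 6 libraries compared (adjusted p = 0.0434) and without 35S-ASCO replicate 1 (adjusted p = 0.0247). It stayed uncalled under 6 of the 8 alternatives of method and in 8 of the 9 fits without 1 library.

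The IAA1 call in 35S-ASCO ended with the replicate number as a block (1.04, adjusted p = 0.069), although the numbers did not pair the libraries. It ended too with only the 6 libraries compared (adjusted p = 0.0953) and without the libraries labelled 4 days (adjusted p = 0.0946). It also ended without 7 of the 9 libraries in turn, all but WT replicate 3 and 35S-ASCO replicate 3, with adjusted p-values from 0.0518 to 0.134 and 0.78 as the lowest log2 fold change, without 35S-ASCO replicate 1. GH3.3, whose values stand above, fell by 0.82 ± 0.16 in 35S-ASCO (to 0.567 of WT, adjusted p = 0.0383). Its log2 fold change was -0.62 without WT replicate 3 (adjusted p = 0.0524), and the call also ended without WT replicate 1, 35S-ASCO replicate 1 or 2, or any library labelled RNAi-ASCO, at up to an adjusted p of 0.131. With only the 6 libraries compared the GH3.3 call ended at an adjusted p of 0.0943, and without the libraries labelled 4 days at 0.0946.

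The other 27 Aux/IAA genes tested did not pass in 35S-ASCO. DESeq2 also called IAA2, IAA4 and IAA28. IAA4 stood at 97.5 to 128 CPM in WT and at 133 to 174 CPM in 35S-ASCO (log2 fold change 0.46, adjusted p = 0.0941), and IAA2 had 0.52 with values that overlapped WT (adjusted p = 0.176). IAA28 had 0.41 at an adjusted p of 0.053, close to its value in the RNAi-labelled libraries. The family median was 0.10, with 20 of 28 values above 0. Over all genes the median was -0.01, with 10880 of 22719 values above 0. The lowest value was that of IAA32, at -0.35 (adjusted p = 0.32). Among GH3 genes, GH3.6 had 0.00 and GH3.5 had the highest value, 0.24 (adjusted p = 0.432).

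No ARF gene passed in 35S-ASCO: by unadjusted p under 0.05 edgeR counted 1 of 15 (6.67%, compared with 17.4% of all genes), and DESeq2 called 0 after adjustment. The 15 values ran from -0.05 (ARF17, adjusted p = 0.785) to 0.13 (ARF2, adjusted p = 0.272), with a median of 0.00. Among receptors, AFB3 had the highest value, 0.09 (adjusted p = 0.665), and AFB2 the lowest, -0.16 (adjusted p = 0.17). DESeq2 called 0 of the 5 receptor genes in either line.

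**Figure D3:**
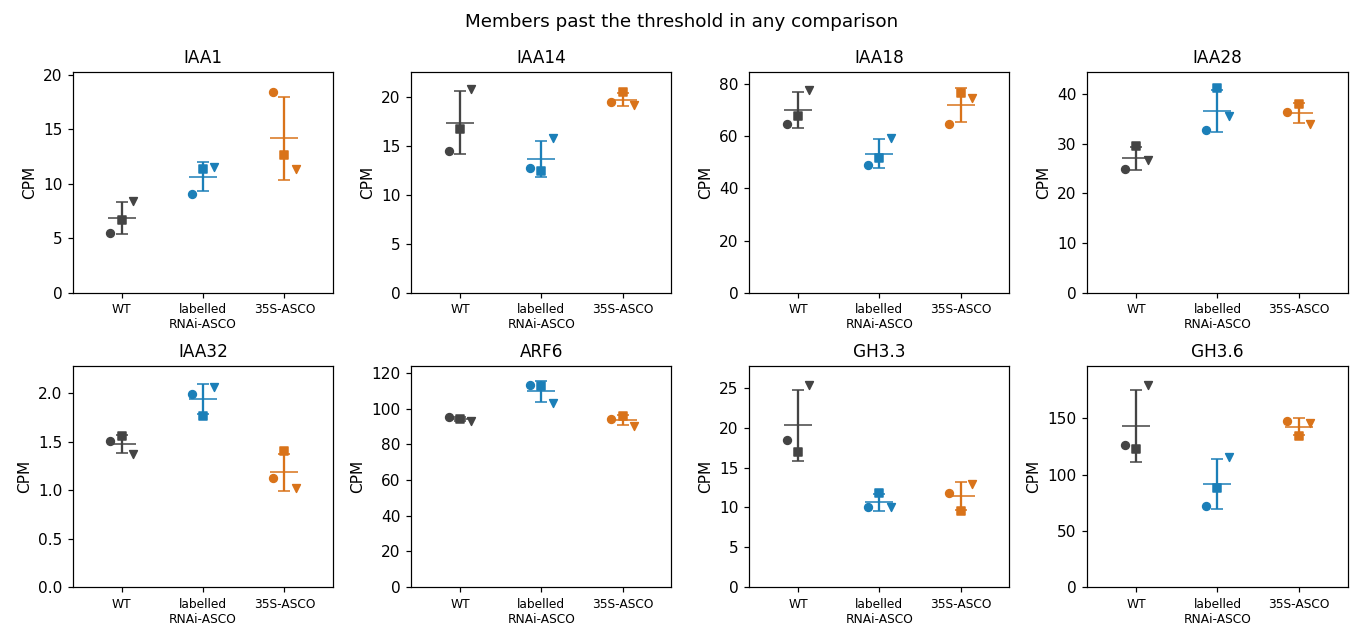
CPM of the 8 genes that passed an adjusted p of 0.05 in any of the 3 comparisons, by group; circles, squares and triangles are replicates 1, 2 and 3, the horizontal line is the mean and the bars are SD (n = 3). In GH3.3, IAA1 and IAA28 both lines stand apart from WT, whereas in IAA18, ARF6 and GH3.6 the RNAi-labelled libraries stand apart from the other groups.

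A direct test of 35S-ASCO against the RNAi-labelled libraries called 4 of 56 genes (7.14%), compared with 6.75% of all genes. IAA14 and IAA18 were higher in 35S-ASCO, and IAA32 and ARF6 were lower, as were 3.2% and 3.55% of all genes. IAA14 (AT4G14550, SLR), whose stabilised form blocks lateral root initiation, stood at 12.8, 12.5 and 15.9 CPM in the RNAi-labelled libraries and at 19.6, 20.5 and 19.2 CPM in 35S-ASCO, with WT between them at 14.5, 16.8 and 20.9 CPM. WT overlapped both lines, the lines did not overlap each other, and the log2 difference was 0.52 ± 0.13 (adjusted p = 0.0407). IAA14 and IAA1 are neighbours on chromosome 4, with 10732 bases between them.

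IAA32 (AT2G01200), an Aux/IAA protein without the degron that receptors bind, stood at 1.99, 1.77 and 2.07 CPM in the RNAi-labelled libraries and at 1.12, 1.40 and 1.02 CPM in 35S-ASCO. Its WT values of 1.51, 1.56 and 1.37 CPM lay below the first group and overlapped the other. The log2 difference was -0.74 ± 0.17 (adjusted p = 0.0281). IAA32 overlaps a gene on the opposite strand, AT2G01210, and how the counting assigned pairs there is not given in the sources used here. The difference was 0.43 ± 0.10 for IAA18 (adjusted p = 0.0291) and -0.23 ± 0.05 for ARF6 (adjusted p = 0.0276).

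Without both libraries labelled 4 days none of these 4 differences passed, at -0.14 for ARF6 to -0.82 for IAA32 among the lower and 0.27 for IAA18 to 0.32 for IAA14 among the higher. Each of the 4 also ended without RNAi-ASCO replicate 1 or 2 or 35S-ASCO replicate 3. Further libraries that ended a call were 35S-ASCO replicate 1 for IAA14, IAA32 and ARF6, 35S-ASCO replicate 2 for IAA14, IAA18 and ARF6, RNAi-ASCO replicate 3 for IAA32 and WT replicate 2 for IAA14. Adjusted p-values then ran from 0.0519 to 0.161. The IAA14 call also ended after thinning the counts to the smallest library (adjusted p = 0.0795) and with single-read counts (0.0502). The IAA32 call also ended after thinning (0.0818) and with the replicate number as a block (0.0505). GH3.3 and IAA28 did not pass this test, with differences of 0.11 ± 0.16 (adjusted p = 0.731) and -0.02 ± 0.09 (adjusted p = 0.932). For GH3.6 the difference was 0.63 ± 0.18 (adjusted p = 0.0652).

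Small RNAs are a second layer of control on ARF genes: miR167 guides cleavage of ARF6 and ARF8 transcripts, and small interfering RNAs from the TAS3 transcripts act on ARF2, ARF3 and ARF4. The polyadenylated counts measure the precursor transcripts and not the mature small RNAs. The list read held 12 loci of small RNAs that target ARF or TIR1/AFB genes, MIR160 and MIR393 loci among them. Of these, 8 were tested and 2 fell in the RNAi-labelled libraries, MIR167D and TAS3A (25%, while 4.82% of all genes fell). In 35S-ASCO 0 passed, and edgeR counted 0 at an unadjusted p under 0.05, compared with 17.4% of all genes. The RefSeq sequence of mature miR167d (chr1:11137556-11137577, plus strand) is shown with its seed, bases 2 to 8, in capitals, beside the sites in ARF6 (chr1:10686478-10686499, minus strand) and ARF8 (chr5:14633840-14633861, plus strand), both in coding sequence, with capitals for paired bases. All are written as DNA of TAIR10.1.
miR167d: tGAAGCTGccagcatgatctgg
ARF6 site: tgAGATCAgGCTGGCAGCTTgt
ARF8 site: ttAGATCAgGCTGGCAGCTTgt
Each site has 5 positions that do not form a Watson-Crick pair. The MIR167D precursor stood at 8.63, 11.6 and 10.4 CPM in WT, at 3.95, 5.22 and 6.05 CPM in the RNAi-labelled libraries and at 6.16, 11.1 and 12.4 CPM in 35S-ASCO. The middle group lay below all other libraries, and MIR167D fell by 1.01 ± 0.25 on the log2 scale against WT (adjusted p = 0.0313). The call ended without any WT library or RNAi-ASCO replicate 1 or 2, at up to an adjusted p of 0.109, and without both libraries labelled 4 days the value was -0.77 (adjusted p = 0.472). The precursor of miR167a, whose mature form has the same seed, had -1.03 at a lower level, 1.95 ± 0.737 CPM in WT, and did not pass (adjusted p = 0.12). The precursor of miR167b, with the same mature sequence as miR167a, went the other way, at 0.27, and did not pass (adjusted p = 0.546). It stood lower still, at means of 0.555 CPM in WT and 0.690 CPM in the RNAi-labelled libraries.

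The TAS3A transcript holds a 21-base window (chr3:5862205-5862225, plus strand), found as the one with fewest mismatches to ARF2, ARF3 and ARF4 together. It is shown with its sites in coding sequence of ARF3 (chr2:14325941-14325961, minus strand), ARF4 (chr5:24309507-24309527, minus strand) and ARF2 (chr5:24913262-24913282, plus strand), with paired bases in capitals, because the same letters recur in all 3 genes.
TAS3A window: tttcttgaccttgtaagaccc
ARF3 site: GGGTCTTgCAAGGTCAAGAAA
ARF4 site: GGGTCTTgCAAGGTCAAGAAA
ARF2 site: GGGTCTTgCAAGGTCAAGAAt
Mismatches numbered 1 in ARF3, 1 in ARF4 and 2 in ARF2. TAS3A stood at 25.6, 25.8 and 23.9 CPM in WT, at 16.4, 17.2 and 19.7 CPM in the RNAi-labelled libraries and at 18.7, 23.5 and 23.5 CPM in 35S-ASCO. Both lines lay below WT without overlap. TAS3A fell by 0.49 ± 0.10 on the log2 scale in the RNAi-labelled libraries (adjusted p = 0.0141) and had -0.20 in 35S-ASCO (adjusted p = 0.321). The call ended without RNAi-ASCO replicate 1 (-0.44, adjusted p = 0.0582) or 2 (-0.47, adjusted p = 0.0622) and without both (-0.35, adjusted p = 0.381). In the same libraries ARF3 had 0.18 (adjusted p = 0.186), ARF4 0.14 (adjusted p = 0.175) and ARF2 0.04 (adjusted p = 0.699).

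Beyond these families, 54 other auxin genes in 6 lists were read, including the small RNA loci, and 48 were tested. In the RNAi-labelled libraries 3 rose and 4 fell (14.6%, compared with 11.8% of all genes), and in 35S-ASCO 3 rose and 0 fell (6.25%, compared with 1.67%). The smallest adjusted p was that of ILL6 (AT1G44350), an amidohydrolase of the ILR1 family best known for cleaving jasmonate-amino acid conjugates. ILL6 stood at 18.2, 16.8 and 20.2 CPM in WT, at 9.93, 10.8 and 12.1 CPM in the RNAi-labelled libraries and at 27.2, 26.2 and 31.0 CPM in 35S-ASCO. No group overlapped another. It fell by 0.75 ± 0.10 on the log2 scale in the RNAi-labelled libraries (adjusted p = 0.00212), rose by 0.62 ± 0.09 in 35S-ASCO (adjusted p = 0.02) and differed by 1.36 ± 0.10 between the lines (adjusted p = 0.000103).

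The difference between the lines in ILL6 held under every alternative run, the highest adjusted p being 0.0233. The fall against WT held without each library in turn but not without both libraries labelled 4 days (-0.61, adjusted p = 0.132). The rise ended without WT replicate 1 or 35S-ASCO replicate 2, at up to an adjusted p of 0.0872, with only the 6 libraries compared (adjusted p = 0.0548) and without the libraries labelled 4 days (adjusted p = 0.0553). IAR3, of the same enzyme family and known to cleave auxin-alanine and jasmonate conjugates, rose in 35S-ASCO by 0.26 ± 0.05 (adjusted p = 0.0395, over 0.05 without any 1 library except WT replicate 2, with only the 6 libraries compared and without those labelled 4 days) and had -0.11 in the RNAi-labelled libraries (adjusted p = 0.208). AT1G14120, annotated as an oxygenase dependent on 2-oxoglutarate and iron, passed between the lines only, at 0.60 ± 0.14 (adjusted p = 0.0312), a call that ended without any 1 library of either line.

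Of the auxin synthesis genes, 2 of 10 tested rose in the RNAi-labelled libraries (20%, compared with 6.96% of all genes). TAR2, a tryptophan aminotransferase of the first step of synthesis, stood at 11.02, 11.8 and 12.5 CPM in WT and at 14.6, 13.7 and 14.9 CPM there, without overlap (log2 fold change 0.29, adjusted p = 0.0374). YUC9, a flavin monooxygenase of the next step, stood at 1.73, 1.89 and 1.01 CPM in WT and at 2.29, 3.23 and 3.01 CPM there (0.89, adjusted p = 0.0484). Each call ended without most single libraries, TAR2 without 6 and YUC9 without 7 of the 9, at up to adjusted p-values of 0.11 and 0.162, and both ended without the libraries labelled 4 days. TAR2 also ended with the replicate block (adjusted p = 0.0512), and YUC9 with only the 6 libraries compared (adjusted p = 0.0612) and after thinning to the smallest library (adjusted p = 0.0981). No gene of the SCF ubiquitin ligase list (7 tested) or of the TOPLESS corepressors (5 tested) passed in any comparison. At an unadjusted p under 0.05, edgeR counted 3 and 0 genes in the RNAi-labelled libraries, compared with 27.5% of all genes. In 35S-ASCO it counted 1 and 1, compared with 17.4% of all genes.

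SAUR genes encode small proteins that promote cell expansion, and many are rapid auxin targets. Of 12 tested, SAUR20 rose and SAUR36 fell in the RNAi-labelled libraries (16.7%, compared with 11.8% of all genes). In 35S-ASCO, SAUR20 rose (8.33%, compared with 1.67% of all genes). SAUR20 stood at 1.32, 1.28 and 1.11 CPM in WT, at 2.02, 3.91 and 2.76 CPM in the RNAi-labelled libraries and at 5.44, 2.91 and 2.49 CPM in 35S-ASCO. Both lines lay above WT, by 1.24 ± 0.33 (adjusted p = 0.0406) and 1.57 ± 0.33 (adjusted p = 0.0462) on the log2 scale. Leaving out 1 library ended the first call in 6 of 9 cases and the second in 8 of 9, all but 35S-ASCO replicate 3. Thinning to the smallest library ended both (adjusted p = 0.0778 and 0.068), as did leaving out the libraries labelled 4 days (0.326 and 0.0904). The second also ended with only the 6 libraries compared (0.0913) and with the replicate block (0.0674). SAUR19 to SAUR24 lie in a cluster on chromosome 5: all 6 had log2 fold changes of 1.20 to 1.57 in 35S-ASCO and 0.72 to 1.24 in the RNAi-labelled libraries. Only SAUR20 of these passed against WT, and 0 passed between the lines. All 6 were highest in 35S-ASCO replicate 1. Up to 16.9% of their 50-base exon windows occur elsewhere in the genome, so their separate values are uncertain. SAUR36, known as a senescence-associated SAUR, had -0.29 in the RNAi-labelled libraries (adjusted p = 0.0445), a call that ended without any 1 library except WT replicate 3 and under 5 of the 8 other alternatives.

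**Figure D4:**
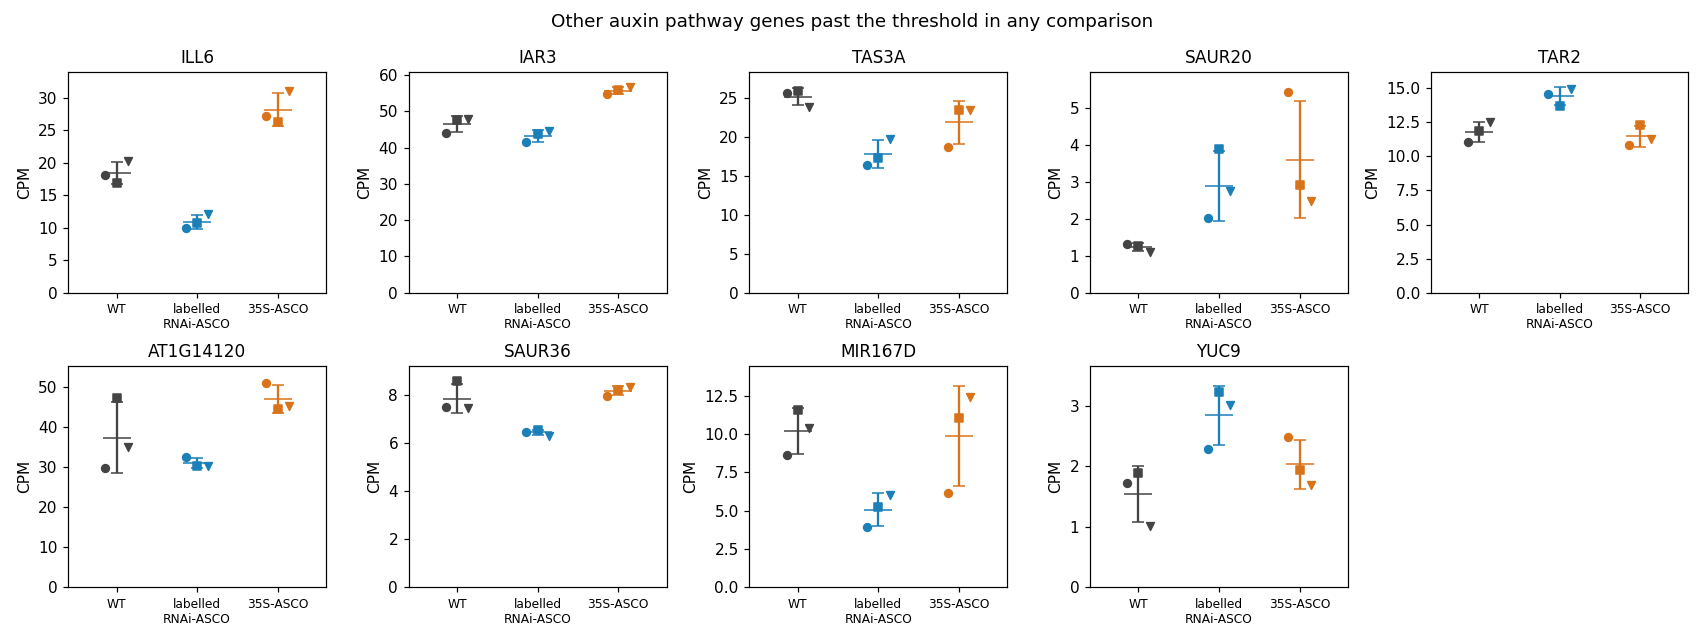
CPM of the 9 other auxin genes that passed an adjusted p of 0.05 in any comparison, by group; symbols are replicates 1 (circle), 2 (square) and 3 (triangle), with mean and SD (n = 3). ILL6 separates all 3 groups, and the MIR167D and TAS3A precursors are lowest in the RNAi-labelled libraries.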

How the data were processed

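Per the submitters' processing notes, TopHat2, Bowtie2 and the TAIR10 build were used; their versions and roles are not given in the sources used here. Per the labels, polyadenylated RNA was made into stranded TruSeq paired-end libraries. The authors deposited whole-number counts of read pairs per gene model; per the file headers (program sam2pkm), properly paired mates were counted, singletons were treated as unmapped, and reads with equally good second alignments were removed, which lowers counts of near-identical genes.

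The counts of all 9 libraries entered 1 model of genotype (edgeR 4.0.16, R 4.3.3; glmQLFit, quasi-likelihood F test, TMM factors), after filterByExpr had left 22719 genes. Benjamini-Hochberg adjustment ran over all of them, the threshold was 0.05, and the SE was derived from the F statistic. The step was tested on simulated data. Groups and replicate numbers came from the sample titles. Same-numbered libraries of different groups deviated together at correlations of -0.02 to 0.08, so the numbers pair nothing. No libraries agreed within sampling noise (chi-square per gene at least 7.02). P-values measure the spread between the biological replicates named in the design text. In the RNAi-labelled group that spread also includes the labelled ages of 4 and 16 days. The 1 model shares its estimate of spread over all groups, so this enters every comparison. The floors cover counting error only.

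Named genes were AT1G67105, members past the threshold in any comparison, the most expressed member and the highest and lowest fold change of each family, members removed by the filter, and up to 12 other auxin genes past the threshold. IAA2, IAA4, ARF3, ARF4, ARF7, GH3.17 and the miR167a and miR167b precursors were added after their values were seen. The members and lists were chosen with earlier results of these data known. Of the 57 members, 14 overlap a gene on the opposite strand, and 3 have 50-base exon windows elsewhere in the genome, at most 1.2% of a gene's windows. Gene starts, small RNAs and sequences are from RefSeq TAIR10.1. Alternatives were DESeq2 1.42.0, relative log expression scaling, no filter, thinned counts, single-read counts, the 6 libraries compared only, a replicate block, no libraries labelled 4 days, and each library left out.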

Additional observations from a re-analysis of the deposited data

Results flagged for a closer look

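Differences between the effects of the 2 lines, tested directly as 35S-ASCO against the RNAi-labelled libraries in edgeR's quasi-likelihood test, passed an adjusted p of 0.05 for 4 of 56 auxin response genes (7.14%) and 5 of 48 other auxin genes (10.4%), compared with 6.75% of all genes. IAA14 differed by 0.52 on the log2 scale (adjusted p = 0.0407), and IAA18 differed by 0.43 (adjusted p = 0.0291). IAA32 differed by -0.74 (adjusted p = 0.0281), its effects against WT lying at 0.39 and -0.35. ARF6 differed by -0.23 (adjusted p = 0.0276). Among the other auxin genes, TAR2 differed by -0.33 (adjusted p = 0.0276) and AT1G14120 by 0.60 (adjusted p = 0.0312). IAR3 differed by 0.36 (adjusted p = 0.00397), SAUR36 by 0.34 (adjusted p = 0.0325) and ILL6 by 1.36 (adjusted p = 0.000103). Without the 2 libraries labelled 4 days, ILL6 was the 1 gene of these 9 still past the threshold.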

How the results depend on the processing

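Over 8 alternatives other than leaving out 1 library, the 84 values of named genes gave 672 results, of which 606 stayed on the same side of the threshold, 47 lost the call and 19 gained it. No value called in the reported fit changed sign, while some values that were not called did. Of the auxin response genes, 5 passed in the RNAi-labelled libraries against WT, compared with 8 by DESeq2, 0 without the 2 libraries labelled 4 days and 1 to 8 without 1 library. Over all genes the 2677 calls became 103 without the libraries labelled 4 days and 995 to 3025 without 1 library. In 35S-ASCO against WT, 2 auxin response genes passed, compared with 5 by DESeq2, 0 in a fit of only the 6 libraries compared, 0 without the libraries labelled 4 days and 0 to 2 without 1 library. Over all genes the 379 calls became 1301 by DESeq2, 64 with only the 6 libraries compared, 64 without the libraries labelled 4 days and 25 to 611 without 1 library. Between the lines, 4 passed, compared with 2 after thinning to the smallest library, 0 without the libraries labelled 4 days and 0 to 7 without 1 library, and the 1534 calls over all genes became 80 without the libraries labelled 4 days and 432 to 1928 without 1 library. Leaving out libraries leaves fewer samples, and without those labelled 4 days the lone RNAi-ASCO library is assumed to vary like the other groups. The causes were otherwise not tested. With the replicate number as a block, 7, 2 and 5 auxin response genes passed in the 3 comparisons, and 2438, 342 and 1355 of all genes. The block ended the calls of IAA1, IAA32, TAR2, SAUR36 and SAUR20 and added ARF8, AFB3, IAA28, GH3.5, GH3.6 and MIR167D in 1 comparison each, but the replicate numbers share only a number: correlations of deviations were -0.02 to 0.08 for the same number and -0.15 to 0.14 for different numbers. AT1G67105 kept direction and side of the threshold under every alternative. Depth limits IAA6, IAA15, GH3.4 and IAA34, and the MIR160 and MIR393 precursors.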
